A study of Homo sapiens with 4 samples.

Results

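The APOBEC3 genes encode cytosine deaminases that act on single-stranded DNA, and in people they form a cluster of 7 genes on chromosome 22: APOBEC3A, APOBEC3B, APOBEC3C, APOBEC3D, APOBEC3F, APOBEC3G and APOBEC3H. Their RNA was measured on Affymetrix exon arrays in T-47D, an established cell line of luminal breast cancer that carries hormone receptors. For 2 of the arrays the cells were given a mimic of the artificial microRNA p-27-5p at 200 nM, and for the other 2 they were given a pre-miR negative control. Both groups were cultured in DMEM with serum and transfected with TurboFect reagent, and the labels give no time after transfection and no separate dose for the control. The labels do not state that replicate arrays stem from separate cultures, so the spread behind each p-value may be technical. A probeset, which reads about 1 exon or part of one, was taken as a member when the platform annotation gave it exactly 1 of the 7 symbols. This held for 43 of 232479 probesets, from 4 for APOBEC3B, APOBEC3C and APOBEC3H to 11 for APOBEC3D, which the annotation lists under that symbol and not as APOBEC3DE.

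These enzymes turn cytosine into uracil, and they are known for blocking retroviruses and mobile elements by damaging newly made viral DNA. Several of them are induced by interferon in blood cells. APOBEC3A and APOBEC3B are also known as sources of C-to-T and C-to-G mutations in breast tumours. The members are close paralogs, so a probeset may also read RNA of a relative, and which RNA each probeset read was not tested.

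APOBEC3F rose in the mimic arrays, and it was the 1 member of 6 tested that passed the test. Across all 15708 genes tested, 1.52% were called higher, at a limma adjusted p under 0.05. APOBEC3F, an enzyme with a pair of zinc-binding domains that restricts HIV lacking Vif, had gene levels of 6.28 and 6.34 in the control arrays and of 7.97 and 7.95 in the mimic arrays, all on the log2 scale. Both mimic arrays stood well above both control arrays, and at gene level the arrays of a group lay close together. Single APOBEC3F probesets differed more between the control arrays, with SDs up to 0.60. They did so in both directions, so the gene mean evens out part of that spread. The group means were 6.31 ± 0.043 (SD, n = 2) and 7.96 ± 0.011 (SD, n = 2). The difference was 1.64 (SE 0.118, 95% confidence interval 1.35 to 1.94), a 3.13-fold higher level, and limma's adjusted p was 0.0036. In bulk RNA, more cells with a transcript and more of it per cell cannot be told apart. APOBEC3H had no probeset bright enough to be tested. None of the 6 tested members was called lower, by limma's adjusted p or at an unadjusted p under 0.05. Across all genes tested these shares were 0.796% and 12.8%, so a count of 0 among 6 says little about the family.

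**Figure D1:**
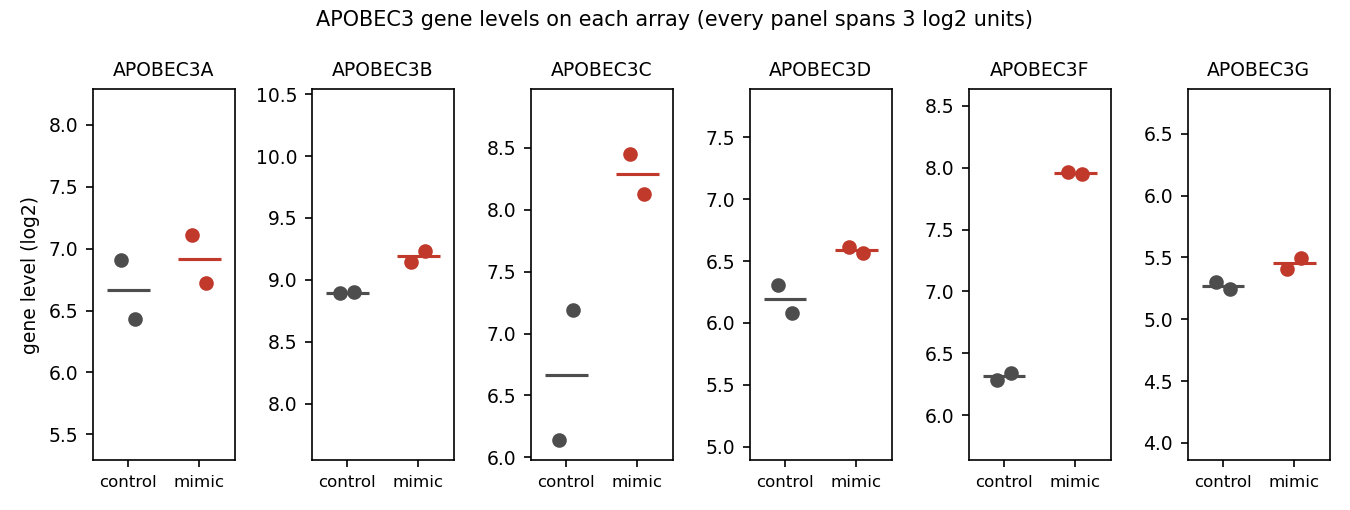
Gene level (log2) of the 6 tested APOBEC3 genes on each control and mimic array, with points for arrays and bars for group means; every panel spans the same height in log2 units, and levels are not comparable between panels. APOBEC3F stands at 6.28 and 6.34 in control and at 7.97 and 7.95 in mimic arrays, and the control arrays of APOBEC3C lie apart, at 6.14 and 7.19.

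The increase of APOBEC3F was seen on 6 of its 7 probesets, on each of which both mimic arrays lay above both control arrays. Over all probesets that carry 1 symbol, 20.6% showed that order. Probeset 3945630 read 7.40 and 7.20 in control and 9.50 and 9.54 in mimic arrays, which is 2.22 higher (SE 0.186, limma adjusted p = 0.0144). Probeset 3945623 had the largest change of all member probesets, from 5.41 and 6.26 to 8.52 and 8.63, or 2.74 (SE 0.321, adjusted p = 0.0418). Its control arrays differed from each other more than its mimic arrays did. Probesets 3945629 and 3945632 were also called, with changes of 2.12 (adjusted p = 0.0413) and 1.93 (adjusted p = 0.0295). Probesets 3945634 and 3945617 had 1.36 and 1.10 and were not called. Probeset 3945617, with group means of 3.72 and 4.82, lay under the background limit in both groups and passed the filter of 4.09 only through its mimic values, so it had to differ. Without it the gene's change was 1.73 (adjusted p = 0.00284), an alternative chosen after seeing the data.

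The remaining probeset, 3945622, was the brightest and did not follow the others. It read 10.70 and 11.01 in control and 10.95 and 10.82 in mimic arrays, so the groups overlapped, and its difference was 0.03 (SE 0.205, adjusted p = 0.954). When APOBEC3F was represented by this probeset alone the gene's call was lost (0.03, adjusted p = 0.946). Without it the gene's change was 1.91 (adjusted p = 0.00191), an alternative chosen after seeing the data. Which transcripts that probeset reads was not tested.

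Background was judged from 133 probesets of 14 liver and neuron genes. Of these probesets, 95% lay under 5.93 in the control arrays and under 6.32 in the mimic arrays. By that limit 2 of the 7 APOBEC3F probesets stood above background in control arrays and 6 in mimic arrays. Control levels so near background mean that the fold change may understate the change. At an unadjusted p under 0.05, 10 of the 24 member probesets tested were higher and 0 lower, against 6.32% and 9.02% of all probesets tested. The 10 include probeset 3945617, which passed the filter only through its mimic values, so that its difference adds no support. By limma's adjusted p 4 of the 24 were called higher, all of APOBEC3F, and 0 lower, against 0.826% and 0.0949% of all probesets tested. Fewer probesets were called under some alternatives. The count was 1 with the replicate number as a block, 1 without control replicate 2, and 0 without control replicate 1 or without either mimic array.

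**Figure D2:**
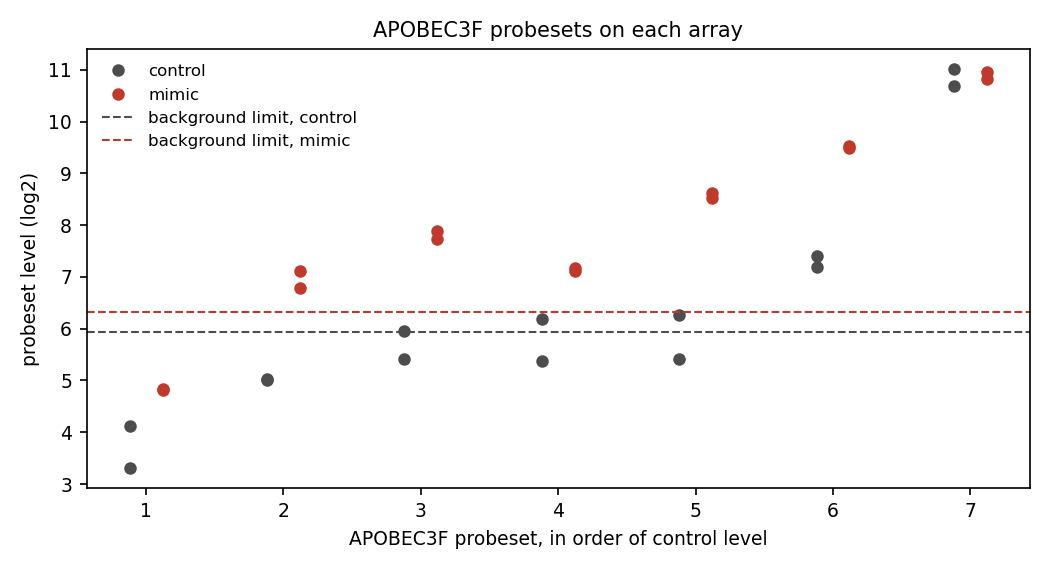
Level (log2) of the 7 APOBEC3F probesets on each array, in order of their control level, with dashed lines at the background limits of 5.93 (control) and 6.32 (mimic). Mimic points lie above control points on 6 probesets, and on the brightest, near 11, they overlap.

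APOBEC3C gave the other large value, on a single probeset. APOBEC3C is a small member with 1 deaminase domain. Its probeset 3945579 read 6.14 and 7.19 in control and 8.45 and 8.13 in mimic arrays. Mimic arrays were higher without overlap, but the control arrays lay far apart. The difference was 1.63 (SE 0.357, 95% confidence interval 0.72 to 2.53), and limma did not call it (adjusted p = 0.0945). Leaving out a control array removes that spread, so the SE then rests on the mimic arrays and the single control array is assumed to vary like them. In such fits the change was 1.10 without control replicate 1 (adjusted p = 0.00409) and 2.15 without control replicate 2 (adjusted p = 3.0e-06), calls that follow from the lost spread and support nothing. It was also called with an intensity trend (adjusted p = 0.0124) and with dim probesets kept in (0.53, adjusted p = 0.0313). The other 3 probesets of APOBEC3C stayed between 2.99 and 3.82 on every array, below the background limit, with control and mimic arrays overlapping on each.

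APOBEC3B, the nuclear member known for mutations in breast cancer, was well above background on 3 of 4 probesets in both groups. Its gene level was 8.89 and 8.90 in control and 9.14 and 9.23 in mimic arrays. The mimic arrays were a little higher without overlap. The difference was 0.29 (SE 0.120), with a 95% confidence interval from -0.01 to 0.60 that lies below the interval of APOBEC3F, and limma did not call it (adjusted p = 0.257). Taken within each array, APOBEC3F minus APOBEC3B was -2.61 and -2.56 in control and -1.18 and -1.28 in mimic arrays. These values did not overlap, but 2 arrays against 2 allow no two-sided exact permutation p below 0.333. Most of APOBEC3B's small difference came from its dimmest probeset, 3945558, which read 4.68 and 4.58 in control and 5.38 and 5.45 in mimic arrays. Its other 3 probesets had 0.05 to 0.20.

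APOBEC3D, which like APOBEC3F restricts HIV lacking Vif, was uneven across its 11 probesets. Its gene level was 6.31 and 6.08 in control and 6.61 and 6.57 in mimic arrays, a difference of 0.40 (SE 0.136, adjusted p = 0.194). Probeset 3945595 read 4.03 and 4.26 in control and 5.50 and 5.69 in mimic arrays, a difference of 1.45 (adjusted p = 0.0665). Probeset 3945589 had 0.91 (adjusted p = 0.225). Both stayed below the background limit in both groups. The brightest, 3945593, had 0.25 at levels from 10.89 to 11.19, and the whole gene ranged from -0.25 to 1.45 over its probesets.

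APOBEC3A, the interferon-induced member of monocytes, had 1 probeset above background, at 9.32 and 9.17 in control and 9.60 and 9.33 in mimic arrays. Its 4 other probesets lay between 2.88 and 4.62. The gene-level difference was 0.25 (SE 0.222, adjusted p = 0.588), and the control and mimic arrays overlapped. APOBEC3G, the classical restriction factor of T cells, had none of its 8 probesets above the background limit in either group. The 2 that were bright enough to test gave the gene 5.30 and 5.24 in control and 5.41 and 5.49 in mimic arrays, a difference of 0.18 (SE 0.121, adjusted p = 0.469). Over all 8 probesets without a filter the gene's value was -0.08, so its direction is not set by these data.

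APOBEC3H, a member with 1 deaminase domain, was at background, with its 4 probesets between 2.89 and 4.32 over all arrays. The probeset differences lay between 0.04 and 0.34. Its promoter was in the RefSeq sequence table (GRCh38.p14), and it was searched because it was the 1 of the 7 members matched there. The window ran from 250 bases before to 50 after the gene's start and was searched on both strands. It held 1 match to AAANNGAAA, a core of the interferon-stimulated response element that 10.5% of 35116 promoters of that length hold. It held no TTCNNNGAA, the gamma-activated site (7.66% of promoters), and no TTTGAA, the cell cycle homology region (15.2%). The AAANNGAAA match begins 27 bases after the start, and it is shown on the plus strand, chr22:39097261-39097290, with the match in capitals.
APOBEC3H: agagctgccaAAAGTGAAActtagtgcctc

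**Figure D3:**
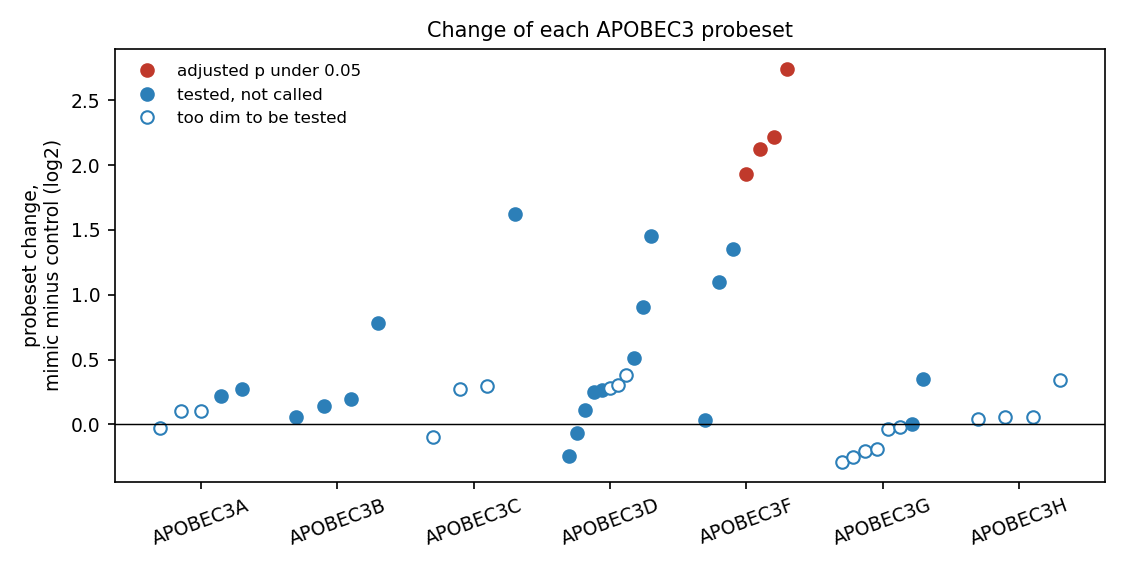
Change (log2, mimic minus control) of each of the 43 APOBEC3 probesets by gene, red where limma's adjusted p was under 0.05 and open where the probeset was too dim to be tested. The 4 red points belong to APOBEC3F, between 1.93 and 2.74, and the APOBEC3G points lie between -0.29 and 0.35.

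As a family, 33 of the 43 probesets had a higher mean in the mimic arrays and 10 a lower one, with a median change of 0.22. Of all probesets with 1 symbol 49.1% had a higher mean in the mimic arrays, and their median change was -0.0069. On 17 probesets both mimic arrays lay above both control arrays, and on 2 below, against 20.6% and 23.6% of all probesets with 1 symbol. The median over the 6 tested genes was 0.35, against 0.00 over all genes tested. At gene level 5 of 6 had both mimic arrays above both control arrays, which 20.5% of all genes had, and 3 were higher at an unadjusted p under 0.05, as were 7.66% of genes. A filter on the mean of all arrays favours a gene that is bright in 1 group, and 2 of the 24 probesets tested had a control mean under that filter, 1 of APOBEC3F and 1 of APOBEC3A. The liver and neuron genes also leaned upwards. Of their 133 probesets, 91 had a higher mean in mimic arrays, and their median change was 0.11 over these probesets and 0.24 over their 11 tested genes. Among these genes APOA2, APOC3, SLC17A6 and FGB had 0.82, 1.26, 0.24 and 0.33, and limma called 0, with 1 higher at an unadjusted p under 0.05. The mean level of those 11 genes was 4.59 to 5.13 in control and 5.09 to 5.40 in mimic arrays, and their part in the small differences of APOBEC3A, APOBEC3B, APOBEC3D and APOBEC3G was not tested.

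APOBEC3 genes are abundant in leukocytes, so leukocyte markers were read on the same arrays. Limma called 0 of 12 tested markers, and 1 was higher and 0 lower at an unadjusted p under 0.05. Over all genes tested those unadjusted shares were 7.66% and 12.8%. The marker higher at that p was CD14 with 0.46 (adjusted p = 0.182). CD33, ITGAM and CD79A had 0.27, 0.20 and 0.23. Other markers went the other way, with -0.43 for CD3E, -0.13 for CD2, -0.11 for CD3D and -0.10 for CSF1R. The list median was 0.21. The mean level of the list was 5.39 to 5.67 in control and 5.54 to 5.73 in mimic arrays. PTPRC, the pan-leukocyte marker CD45, had the lowest control level of the list, at 4.58 in control and 4.87 in mimic arrays. The highest levels were those of CD3E (7.38 and 6.96) and CD14 (6.22 and 6.68), above the background limits. The limits rest on single probesets without a filter. These gene levels average only the probesets that passed the filter, 2 of 6 for CD3E and 2 of 4 for CD14, so the measures are unlike. CD3D (5.79 and 5.68) and CD2 (5.08 and 4.95) lay below the limits. The luminal markers of the labelled line were present, with a median control level of 9.82 over 12 genes, and limma called none of them. At an unadjusted p under 0.05, 12.8% of all genes tested were lower, and so were 4 of these markers. These were the hormone receptors PGR (-0.60) and ESR1 (-0.42), the keratin KRT19 (-0.48) and the transcription factor SPDEF (-0.38), with adjusted p from 0.135 to 0.2. The median over the luminal list was -0.12. EPCAM, TFF1, KRT18 and CDH1 had 0.15, 0.11, 0.07 and 0.06. GATA3 and FOXA1 had -0.02 each, and KRT8 and XBP1 had -0.26 and -0.21. With an intensity trend PGR, ESR1 and KRT19 were called (adjusted p = 0.0214, 0.0293 and 0.0305), and ESR1 had 0.0258 with its brightest probeset.

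Among other nucleic acid deaminases, limma called 1 of 10 tested genes higher and 0 lower, against 1.52% and 0.796% of all genes tested. ADAR, which edits adenosine in double-stranded RNA, rose by 1.11 (SE 0.123, adjusted p = 0.0171), from 9.95 to 11.06. The call was lost without mimic replicate 1 (1.13, adjusted p = 0.0896), without mimic replicate 2 (1.10, adjusted p = 0.11) and with its brightest probeset (1.13, adjusted p = 0.084). Of the closer relatives of the APOBEC3 genes, APOBEC1 and APOBEC2 lay below the background limit. APOBEC1, the editor of apolipoprotein B mRNA in the gut, had 0.58 (adjusted p = 0.455), with control and mimic arrays overlapping. APOBEC2, a muscle gene, had 0.42 (adjusted p = 0.505), and APOBEC4 had 0.43 (adjusted p = 0.166). ADAT3, of a tRNA deaminase, had -0.20.

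Of other restriction factors, limma called 12 of 17 tested members higher and 0 lower, against 1.52% and 0.796% of all genes tested. The list median was 1.83. At an unadjusted p under 0.05, 13 were higher and 3 lower, against 7.66% and 12.8% of all genes tested. The 3 lower were SLFN11 (-0.52), MARCHF8 (-0.51) and SERINC5 (-0.46), and limma did not call them. How the share called differs from that of the APOBEC3 genes was not tested. The genes of that list were chosen as antiviral genes with earlier results known. IFITM1, which blocks virus entry, rose by 4.91 (SE 0.117). The GTPase MX1, TRIM22 and HERC5, an ISG15 ligase, rose by 4.79, 6.23 and 3.35, and the call of HERC5 was lost with its brightest probeset (0.80, adjusted p = 0.37). In interferon receptor signalling, limma called 4 of 12 genes higher and 0 lower, against 1.52% and 0.796% of all genes tested, and 8 did not pass. The 4 called were the transcription factors IRF1 (3.36), IRF9 (2.23), IRF7 (1.85) and STAT2 (2.00). IRF7 had 0.53 (adjusted p = 0.32) with its brightest probeset. At an unadjusted p under 0.05, 6 of this list were higher and 1 lower, against 7.66% and 12.8% of all genes tested. The 1 lower was JAK1 (-0.59, adjusted p = 0.0776). Without overlap between the groups, 6 genes of this list were higher in mimic arrays and 2 lower. These 2 were JAK1 and IFNAR1 (-0.35, adjusted p = 0.345).

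The gene that changed most like APOBEC3F was ZC3HAV1, the zinc-finger antiviral protein that binds CpG-rich viral RNA. Likeness was the root mean square distance, over the 4 arrays, between log2 values centred on the control mean. ZC3HAV1 differed from APOBEC3F by 0.0064 and rose by 1.64 (SE 0.118, adjusted p = 0.00366), a call lost with its brightest probeset (1.42, adjusted p = 0.0716). The next were TAP2, a peptide transporter for MHC class I, at a distance of 0.038 and a rise of 1.67, and the cathepsin CTSO, at 0.047 and 1.60. With so few arrays many genes have similar profiles, and the order is a description.

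**Figure D4:**
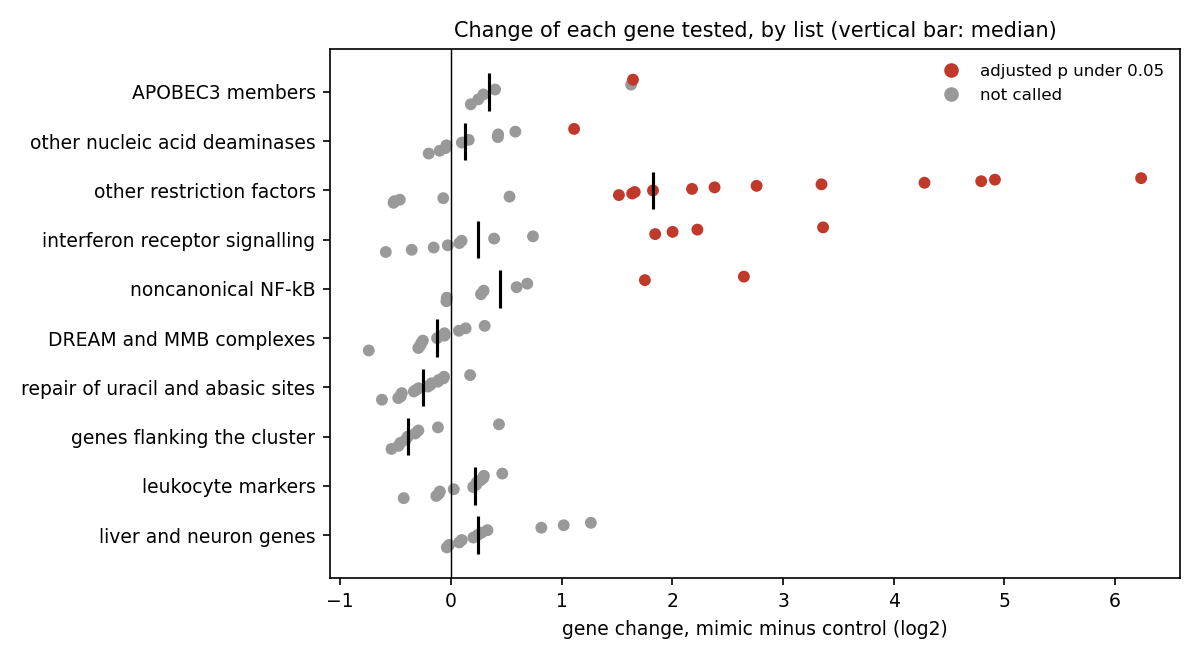
Change (log2, mimic minus control) of each tested gene by list, red where limma's adjusted p was under 0.05, with a bar at each list's median. APOBEC3F is the 1 red point among the APOBEC3 members, beside the uncalled APOBEC3C at 1.63, and 12 of 17 other restriction factors are red.

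Genes of pathways known to regulate APOBEC3B were read as lists of their own, which do not sort activators from inhibitors. RELB, the noncanonical NF-kB subunit that drives APOBEC3B, rose by 1.75 (SE 0.129, adjusted p = 0.00398), and BIRC3 by 2.65. NFKB2 and TRAF3 had 0.69 (adjusted p = 0.0651) and 0.59 (adjusted p = 0.124), and were called under 6 and 3 of 15 alternatives, with adjusted p from 0.00806 to 0.322 and from 0.0311 to 0.492. The list had 2 of 8 genes called higher and 0 lower, against 1.52% and 0.796% of all genes tested. Limma called 0 of 11 genes of the DREAM and MMB complexes, which switch cell cycle genes, APOBEC3B among them, off and on. In this list 1 was higher and 1 lower at an unadjusted p under 0.05. Over all genes tested 7.66% were higher and 12.8% lower at that p, so these counts say little about the complexes. MYBL2, the B-MYB subunit, had -0.74 (adjusted p = 0.0638, and 0.0498 with the replicate number as a block), and it was called under 5 of 15 alternatives, with adjusted p from 0.00384 to 0.341. FOXM1, E2F5 and RBL1 had -0.27, 0.30 and -0.29.

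Genes that repair the uracil left by these enzymes gave no call. Limma called 0 of 16, and the list median was -0.25. At an unadjusted p under 0.05, 0 were higher and 5 lower, and 12.8% of all genes tested were lower at that p. Both mimic arrays lay under both controls for 11 of the 16 genes and above them for 1, orders that 29.5% and 20.5% of all genes had. UNG, the main uracil DNA glycosylase, had -0.62 (adjusted p = 0.0831), HMCES, which shields abasic sites, -0.45, the ligase LIG1 -0.48 and the endonuclease APEX1 -0.44. UNG was called under 3 of 15 alternatives, with adjusted p from 0.0112 to 0.372.

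None of the tested genes beside the cluster was called in either direction. In RefSeq order the cluster runs from APOBEC3A to APOBEC3H with no other protein-coding gene inside, between the Polycomb genes CBX6 and CBX7. Of the 5 protein-coding genes on either side, 9 were tested and limma called 0, with a median of -0.39. At an unadjusted p under 0.05, 1 was higher and 3 lower, against 7.66% and 12.8% of all genes tested. On 7 of them the mimic arrays both lay under the lower control array, an order that 29.5% of all genes had. SUN2 had -0.54 (adjusted p = 0.108), SYNGR1 -0.47, CBX6 -0.46 and GTPBP1 0.43 (adjusted p = 0.141).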

How the data were processed

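Each array's deposited log2 values, at exon level, come from Partek and the RMA method with genome build hg18, per the submitters' processing notes, which give no versions or order of steps. The authors' quantile step, if any, is not given in the sources used here, and the 4 columns do not share 1 distribution. Symbols came from the platform annotation and were updated through RefSeq (25769 probesets), and 2335 probesets with several symbols were left out. A gene's value was the mean of its probesets whose mean over all arrays reached the table's 25th percentile, 4.09, which left 163371 probesets and 15708 genes. Mimic was compared with control by limma's two-sided moderated test (version 3.58.1, R 4.3.3; Benjamini-Hochberg adjustment over all genes or all probesets, threshold 0.05). Residual degrees of freedom were 2, and 5.29 after moderation. The code was tested on simulated data. The members and lists were chosen with earlier results of these data known, so lists are described by counts and medians. Named genes are all members, the 4 genes of each list with the smallest p, the other APOBEC genes and the 3 nearest to a called member. Other genes of the lists that are named, PTPRC and CD3E among them, were named after their values were seen. Having 2 arrays per group limits precision. Alternatives were a replicate block, 3 normalizations, 2 filters, 2 gene summaries, an intensity trend, leaving out each array, and leaving out 1 APOBEC3F probeset at a time in 2 cases chosen after seeing the data. Leaving out an array leaves 1 in its group, which is assumed to vary like the other group. Plots were drawn with matplotlib 3.10.9.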

Additional observations from a re-analysis of the deposited data

How the results depend on the processing

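With all arrays kept, APOBEC3F was called higher under every alternative except its brightest probeset (0.03), with changes from 1.64 to 2.12. Those include 2 that left out an APOBEC3F probeset chosen after seeing the data, which add no support. With single arrays left out its change was 1.61 to 1.74, and 1 array in a group shows no spread. The number of members called was 1 in the reported fit, 0 with the brightest probeset, 2 with an intensity trend, 2 without a filter, and 1 to 2 with single arrays left out. The number of member probesets called was 4, 1 with the replicate block, and 0 to 1 with single arrays left out. Limma called 364 genes in all, 122 with the brightest probeset, 1595 with an intensity trend, 1433 without a filter, and 161 to 1656 with single arrays left out. The split was 239 higher and 125 lower, and 314 and 223 with quantile normalization, 221 and 88 with equal medians, and 526 and 1069 with the trend. Signs turned for uncalled values: with the brightest probeset APEX1 (0.0151), CBX6 (0.0291), ESR1 (0.0258) and RBL1 (0.0285), with the median of probesets E2F5 (-0.11), without a filter APOBEC3G (-0.0793) and CD33 (-0.12), and without control replicate 2 APOBEC2 (-0.0242). Over the alternatives the list counts were 8 to 15 for other restriction factors, 3 to 6 for interferon receptor signalling, 2 to 4 for noncanonical NF-kB, 0 to 2 for other deaminases, for DREAM and MMB and for uracil repair, 0 to 3 for flanking genes and luminal markers, 0 to 4 for liver and neuron genes and 0 for leukocyte markers. The series describes mimic and control samples as paired, but no label says what a shared number marks. Differences between replicates 1 and 2 correlated between the groups with r = 0.435 over genes. With the block APOBEC3F had an adjusted p of 0.0146 and 438 genes were called. The cause of these shifts was not tested.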
